A study of Mus musculus with 6 samples.

Results

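Oxidative phosphorylation genes were followed through spermatogenesis in the testes of nicotine-exposed and control mice. The set was chosen by gene symbol: every annotated gene starting with mt-Nd, mt-Co, mt-Cy, mt-Atp, Nduf, Uqcr, Atp5 or Cox4 to Cox8, together with the succinate dehydrogenase genes Sdha, Sdhb, Sdhc and Sdhd and the cytochromes c Cycs and Cyct, with pseudogene symbols left out. This gave 108 of the 32285 annotated features, of which 13 are mitochondrially encoded and 95 nuclear encoded. The nuclear members comprised 36 complex I subunits, 8 complex I assembly factors, 4 subunits of complex II, 8 of complex III, 20 of complex IV, both cytochromes c and 17 of ATP synthase. The animals were C57BL/6J males. For the nicotine mice, nicotine was dissolved in the drinking water at 200 µg/mL from 3 weeks of age, for 8 weeks. The control mice had plain water, and all animals were sampled at 11 weeks of age. Both testes of a mouse were dissociated into 1 single-cell library on the 10x 3′ platform, with 3 mice per group.

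The respiratory chain moves electrons from NADH through complex I, or from succinate through complex II, to ubiquinone, then through complex III and cytochrome c to complex IV, where oxygen is reduced. Complexes I, III and IV pump protons across the inner mitochondrial membrane, and ATP synthase uses the gradient to make ATP. Mitochondrial DNA encodes the core hydrophobic subunits of complexes I, III, IV and ATP synthase, and the nuclear genome encodes all of complex II, cytochrome c and the remaining subunits. The testis is known for germ cell isoforms of these proteins: Cyct encodes testis cytochrome c, where somatic cells use Cycs, and Cox6b2, Cox7b2 and Cox8c are complex IV subunit isoforms found mainly in testis, each with a widely expressed partner (Cox6b1, Cox7b and Cox8a). Genes on the X chromosome are transcriptionally silenced in pachytene spermatocytes, a process called meiotic sex chromosome inactivation.

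Promoters of 2 isoform pairs are shown as examples. Under the main settings the testis gene of each was higher, and its partner lower, in the joint than in the early class. The values are given under the isoforms. Those of both classes depend on where cells of high depth, described below, are placed. Each sequence is the RefSeq window on GRCm38.p6 that covers 250 bases before to 50 bases after the start of the gene, 5′ to 3′ on the gene's strand, which is the minus strand for all 4. The windows lie at chr2:76360404-76360703 for Cyct, chr6:50566520-50566819 for Cycs, chr7:4753045-4753344 for Cox6b2 and chr7:30626065-30626364 for Cox6b1. Capitals mark matches to TGACGTCA, the cAMP response element, to GCGCATGC, the core of the NRF1 motif, and to CCGGAAG, the core of the ETS and GABPA motif, on either strand.
Cyct: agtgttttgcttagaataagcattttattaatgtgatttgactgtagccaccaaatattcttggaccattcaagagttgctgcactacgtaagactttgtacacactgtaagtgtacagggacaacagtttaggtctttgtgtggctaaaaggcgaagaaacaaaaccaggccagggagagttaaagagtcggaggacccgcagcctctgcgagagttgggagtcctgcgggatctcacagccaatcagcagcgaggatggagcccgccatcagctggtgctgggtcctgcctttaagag
Cycs: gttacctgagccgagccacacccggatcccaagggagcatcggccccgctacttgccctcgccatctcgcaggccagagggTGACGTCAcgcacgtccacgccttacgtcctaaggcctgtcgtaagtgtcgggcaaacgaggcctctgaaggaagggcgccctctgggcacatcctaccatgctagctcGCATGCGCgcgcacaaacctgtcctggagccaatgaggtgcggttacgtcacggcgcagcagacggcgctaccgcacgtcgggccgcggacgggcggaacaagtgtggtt
Cox6b2: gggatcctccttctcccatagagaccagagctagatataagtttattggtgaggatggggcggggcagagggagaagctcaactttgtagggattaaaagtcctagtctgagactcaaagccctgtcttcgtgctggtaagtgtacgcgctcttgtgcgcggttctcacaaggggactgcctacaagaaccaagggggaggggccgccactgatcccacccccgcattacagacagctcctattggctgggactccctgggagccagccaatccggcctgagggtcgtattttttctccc
Cox6b1: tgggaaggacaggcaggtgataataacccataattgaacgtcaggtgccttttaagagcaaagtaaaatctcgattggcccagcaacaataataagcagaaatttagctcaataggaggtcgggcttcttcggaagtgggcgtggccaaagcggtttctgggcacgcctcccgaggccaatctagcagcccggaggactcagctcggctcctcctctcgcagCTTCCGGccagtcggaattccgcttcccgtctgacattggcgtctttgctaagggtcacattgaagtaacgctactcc
The Cycs window held the cAMP response element at position 82 and the NRF1 core at position 191, counted from the 5′ end of the window, and the Cox6b1 window held the ETS core once. None of the 3 motifs was found in the Cyct or Cox6b2 windows, which says only that these letters are not in these 300 bases. GC content was 48.3% for Cyct and 65.0% for Cycs, and 55.7% for Cox6b2 and 53.0% for Cox6b1, beside a median of 52.7% over all 32851 windows. The Cyct window had 8 CpG dinucleotides and the Cycs window 32, the Cox6b2 window 10 and the Cox6b1 window 17, beside a median of 7. In Cox7b2 and Cox7b, a pair with the same course that is not printed, the order was the other way, with 10 CpG dinucleotides in the Cox7b2 window (GC 48.7%) and 5 in that of the X-linked Cox7b (GC 43.3%). Of the 95 nuclear members, 78 matched a window. The NRF1 core was in 13 of these (16.7%) and in 3.05% of all 27025 genes with a window, the ETS core in 19 (24.4%) and in 9.93%, and the cAMP response element in 5 (6.41%: Cycs, Ndufa10, Ndufa11, Ndufb2 and Uqcrfs1) and in 2.03%. These counts describe letters in a window, not binding.

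The files held 68400 cell barcodes, 10823 to 12317 per library, with 67853893 to 88329607 unique molecular identifiers (UMIs) per library. After cell filters 61945 cells were kept, with a median of 2204 to 2882 UMIs per kept cell over the libraries. They were grouped in 30 clusters, with the 108 members left out of the genes used for clustering. Classes were named from marker genes and rebuilt here, so their borders may differ from those of the study. The 5 germ cell classes described by stage were early spermatocyte-like (399 cells), joint early/late spermatocyte-like (2523 cells, carrying markers of both stages), late spermatocyte-like (2963), round spermatid-like (10288) and elongating spermatid-like (15243). Low-UMI clusters, named from the same marker lists, formed 5 further classes of 1641 to 8731 cells, and Sertoli-like (4421), stromal-like (555) and Leydig-like (376) cells were the somatic classes tested. Elongating spermatid markers made up 19.5% of the UMIs of the elongating class, Leydig markers 3.54% of the Leydig-like class and Sertoli markers 0.781% of the Sertoli-like class. Levels are CPM, a gene's UMIs scaled to the summed UMIs of its mouse and class. In this 3′ assay each UMI marks 1 transcript end, so no length correction was made when genes were set side by side.

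Transcripts of the 2 genomes took different courses. Mitochondrially encoded members made up 2.72 ± 0.556% of UMIs in the early class, 3.09 ± 0.691% in the joint class, 0.361 ± 0.101% in the late class, 0.0489 ± 0.0118% in round spermatids and 0.0555 ± 0.0137% in elongating spermatids (SD, n = 6 mice). Nuclear members made up 2.05 ± 0.178, 2.31 ± 0.197, 2.67 ± 0.201, 1.87 ± 0.109 and 0.854 ± 0.0768% of UMIs over the same classes. The mitochondrial share was thus high in the first classes and low in every class after them. Across these classes the nuclear share was highest in the late class and stayed within a narrower range. Its peak depends on where cells of high depth, described below, are placed, as the closing section gives. Classes came from clusters of the same cells, so differences between them are described without a test. Each of the 13 mitochondrial members was lower in the late class than in the joint class, and lower in round spermatids than in the late class, with no overlap between the mice of neighbouring classes. Of the 95 nuclear members, 30 were higher and 23 lower in the late than in the joint class without overlap. Likewise 5 were higher and 52 lower in round spermatids than in the late class, and 5 higher and 72 lower in elongating than in round spermatids. These counts, like those of the mitochondrial members, were not made for all genes, so members cannot be set against other genes here.

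**Figure D1:**
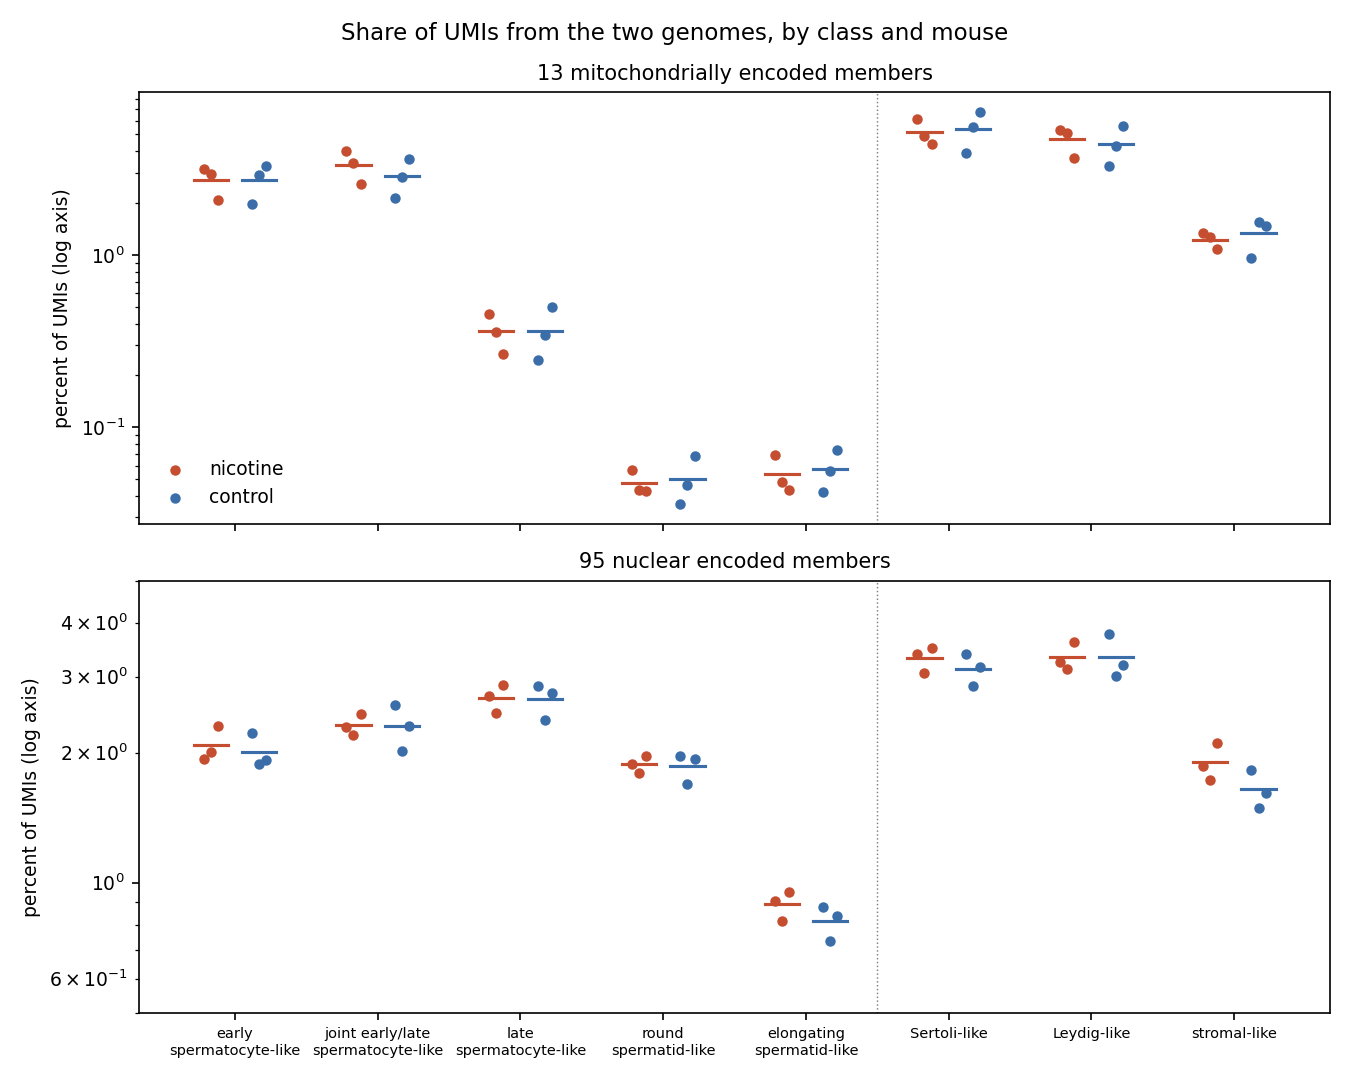
Percent of all UMIs from the 13 mitochondrially encoded (top) and the 95 nuclear encoded (bottom) oxidative phosphorylation genes, both on log axes, in the 5 germ cell and 3 somatic classes outside the low-UMI ones, with 1 point per mouse and a line at the mean of each group of 3, nicotine left of control. The mitochondrial share averaged 3.09% in the joint class and 0.0489% in round spermatids, and nicotine and control mice overlap in every class plotted.

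The course was also visible per cell. Mean UMIs per cell from the mitochondrial genome were 186, 232, 68.0, 8.27 and 3.996 in the early, joint, late, round and elongating classes. Those from nuclear members were 140, 175, 504, 316 and 61.8, while all genes together gave 6845, 7568, 18880, 16914 and 7234. Late spermatocytes therefore held fewer mitochondrial UMIs per cell than joint-class cells although their total was larger. Round and elongating spermatids had few mitochondrial UMIs, and the low-UMI round and elongating classes had 3.01 and 2.86 per cell. The elongating class lay near that level, at which free RNA in droplets was not told apart from the cells' own. Round spermatids lay above it with 8.27, and the part of free RNA in that value was not tested. Sertoli-like cells had a mitochondrial share of 5.27 ± 1.08% and a nuclear member share of 3.22%, and Leydig-like cells 4.54 ± 0.958% and 3.32% (SD, n = 6).

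**Figure D2:**
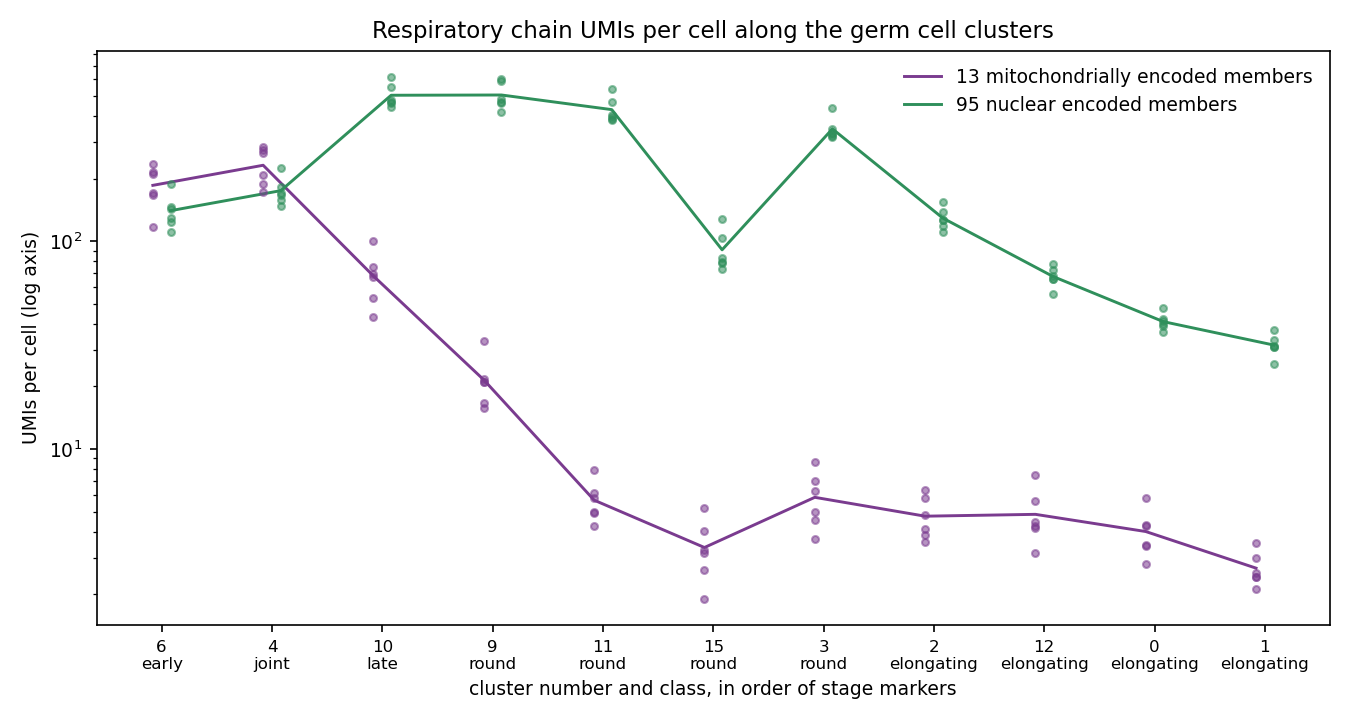
UMIs per cell (log axis) from mitochondrially and nuclear encoded oxidative phosphorylation genes in the 11 germ cell clusters outside the low-UMI classes, ordered by stage markers and labelled with cluster number and class, with 1 point per mouse and lines through the means. Mitochondrial UMIs per cell averaged 232 in cluster 4 (joint), 68.0 in cluster 10 (late) and 21.5 in cluster 9, the first of the round clusters, while nuclear UMIs were 504 in cluster 10 and 505 in cluster 9; cluster 15 is a round cluster of low depth.

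Single mitochondrial genes kept this order. In mt-Co3, a core subunit of complex IV, the joint class had 10008, 8217 and 6253 CPM in nicotine mice against 4768, 6388 and 8710 CPM in control mice. In the late class mt-Co3 stood at 1144, 853 and 638 CPM in nicotine mice against 562, 819 and 1207 CPM in control mice, and in round spermatids at 138, 103 and 103 CPM in nicotine mice against 76.8, 107 and 164 CPM in control mice. All 6 mice thus had less at each step, and the groups overlapped in each class. Joint-class means over round spermatid means ran from 47.0-fold for mt-Co1, the catalytic core of complex IV, to 87.7-fold for mt-Cytb, the mitochondrial subunit of complex III. In the joint class the mean level was 7391 CPM for mt-Co3, 7109 for mt-Atp6, the proton channel subunit of ATP synthase, 5893 for mt-Co2, 3907 for mt-Co1 and 2188 for mt-Cytb. Among the complex I subunits it was 1601 CPM for mt-Nd1, 1389 for mt-Nd4, 566 for mt-Nd2, 406 for mt-Nd3, 231 for mt-Nd5, 99.2 for mt-Nd4l and 31.1 for mt-Nd6, and mt-Atp8, the small accessory subunit of ATP synthase, had 53.3 CPM. Apart from mt-Nd6 these genes lie on 1 strand of the mitochondrial DNA, where mt-Atp8, mt-Atp6 and mt-Co3 overlap, as do mt-Nd4l and mt-Nd4, so counts within those groups cannot be fully told apart. More than 50% of the 91-base windows near the 3′ ends of mt-Atp6, mt-Co1, mt-Co2, mt-Co3, mt-Nd3 and mt-Nd4l also occur in another annotated gene, which makes their exact counts uncertain. The copies listed for these 6 genes are absent from the feature list.

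The joint class was not uniform. At a finer clustering it split into 262 cells of high depth, with medians of 18366 to 30754 UMIs per mouse, and 2256 other cells. The deep cells had a mitochondrial share of 1.44 ± 0.264% and a nuclear member share of 3.09%, against 4.27 ± 1.02% and 1.75% in the other cells (SD, n = 6). Cyct stood at 853, 875 and 848 CPM in nicotine mice against 851, 806 and 779 CPM in control mice in the deep cells, and averaged 346 CPM in the others. When the mitochondrial filter, the depth filter or the doublet step was changed, about the same number of deep cells fell with the early class instead. Values of the early and joint classes therefore depend on where these cells are placed: the early mitochondrial share became 1.41 to 1.76% under those alternatives.

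The complexes did not all follow the same course. Nuclear subunits of complex IV peaked late, at 0.681, 1.06, 1.20, 0.719 and 0.275% of UMIs from the early to the elongating class, and the 3 mitochondrial subunits of the same enzyme had 1.30, 1.72, 0.214, 0.0282 and 0.0310%. Complex II, which has no mitochondrial subunit, was highest early and lower at each step, with 0.0442, 0.0328, 0.0264, 0.0125 and 0.00497%. Nuclear complex I subunits had 0.636, 0.605, 0.749, 0.576 and 0.268%, and nuclear ATP synthase subunits 0.423, 0.293, 0.350, 0.323 and 0.197%. The mitochondrial complex I subunits had 0.535, 0.432, 0.0470, 0.00711 and 0.00870%, below the nuclear ones in every class. The mitochondrial subunits of ATP synthase had 0.634, 0.716, 0.0827, 0.0110 and 0.0128%, above the nuclear ones in the early and joint classes and below them afterwards. In complex III the nuclear share was 0.158, 0.175, 0.236, 0.166 and 0.0817% and the single mitochondrial subunit had 0.257, 0.219, 0.0177, 0.00249 and 0.00300%, so that complexes III and IV also changed from more mitochondrial to more nuclear UMIs between the joint and the late class. Of the 95 nuclear members, 37 had their highest germ cell mean in the early class, 15 in the joint, 36 in the late, 6 in the round and 1 in the elongating class.

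The most abundant nuclear members in each class were complex IV subunits almost throughout. Cox8c led all 5 germ cell classes, with 1028, 4882, 3952, 1789 and 800 CPM. Behind it stood Cox6c (811 CPM) and Cox5a (754) in the early class, Cox6b2 (898) and Cox6c (814) in the joint class, and Cox5a (1650) and Cox6b2 (1367) in the late class. In round spermatids Cox5a (1207 CPM) and Cox6b2 (980) followed, and in elongating spermatids Cox7a2 (574 CPM) and Uqcrq (456), a complex III subunit. Leydig-like cells had another order, led by Cox6c (1270 CPM), Cox4i1 (1263) and Ndufa4 (1188), with Cox8c at 665 CPM.

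**Figure D3:**
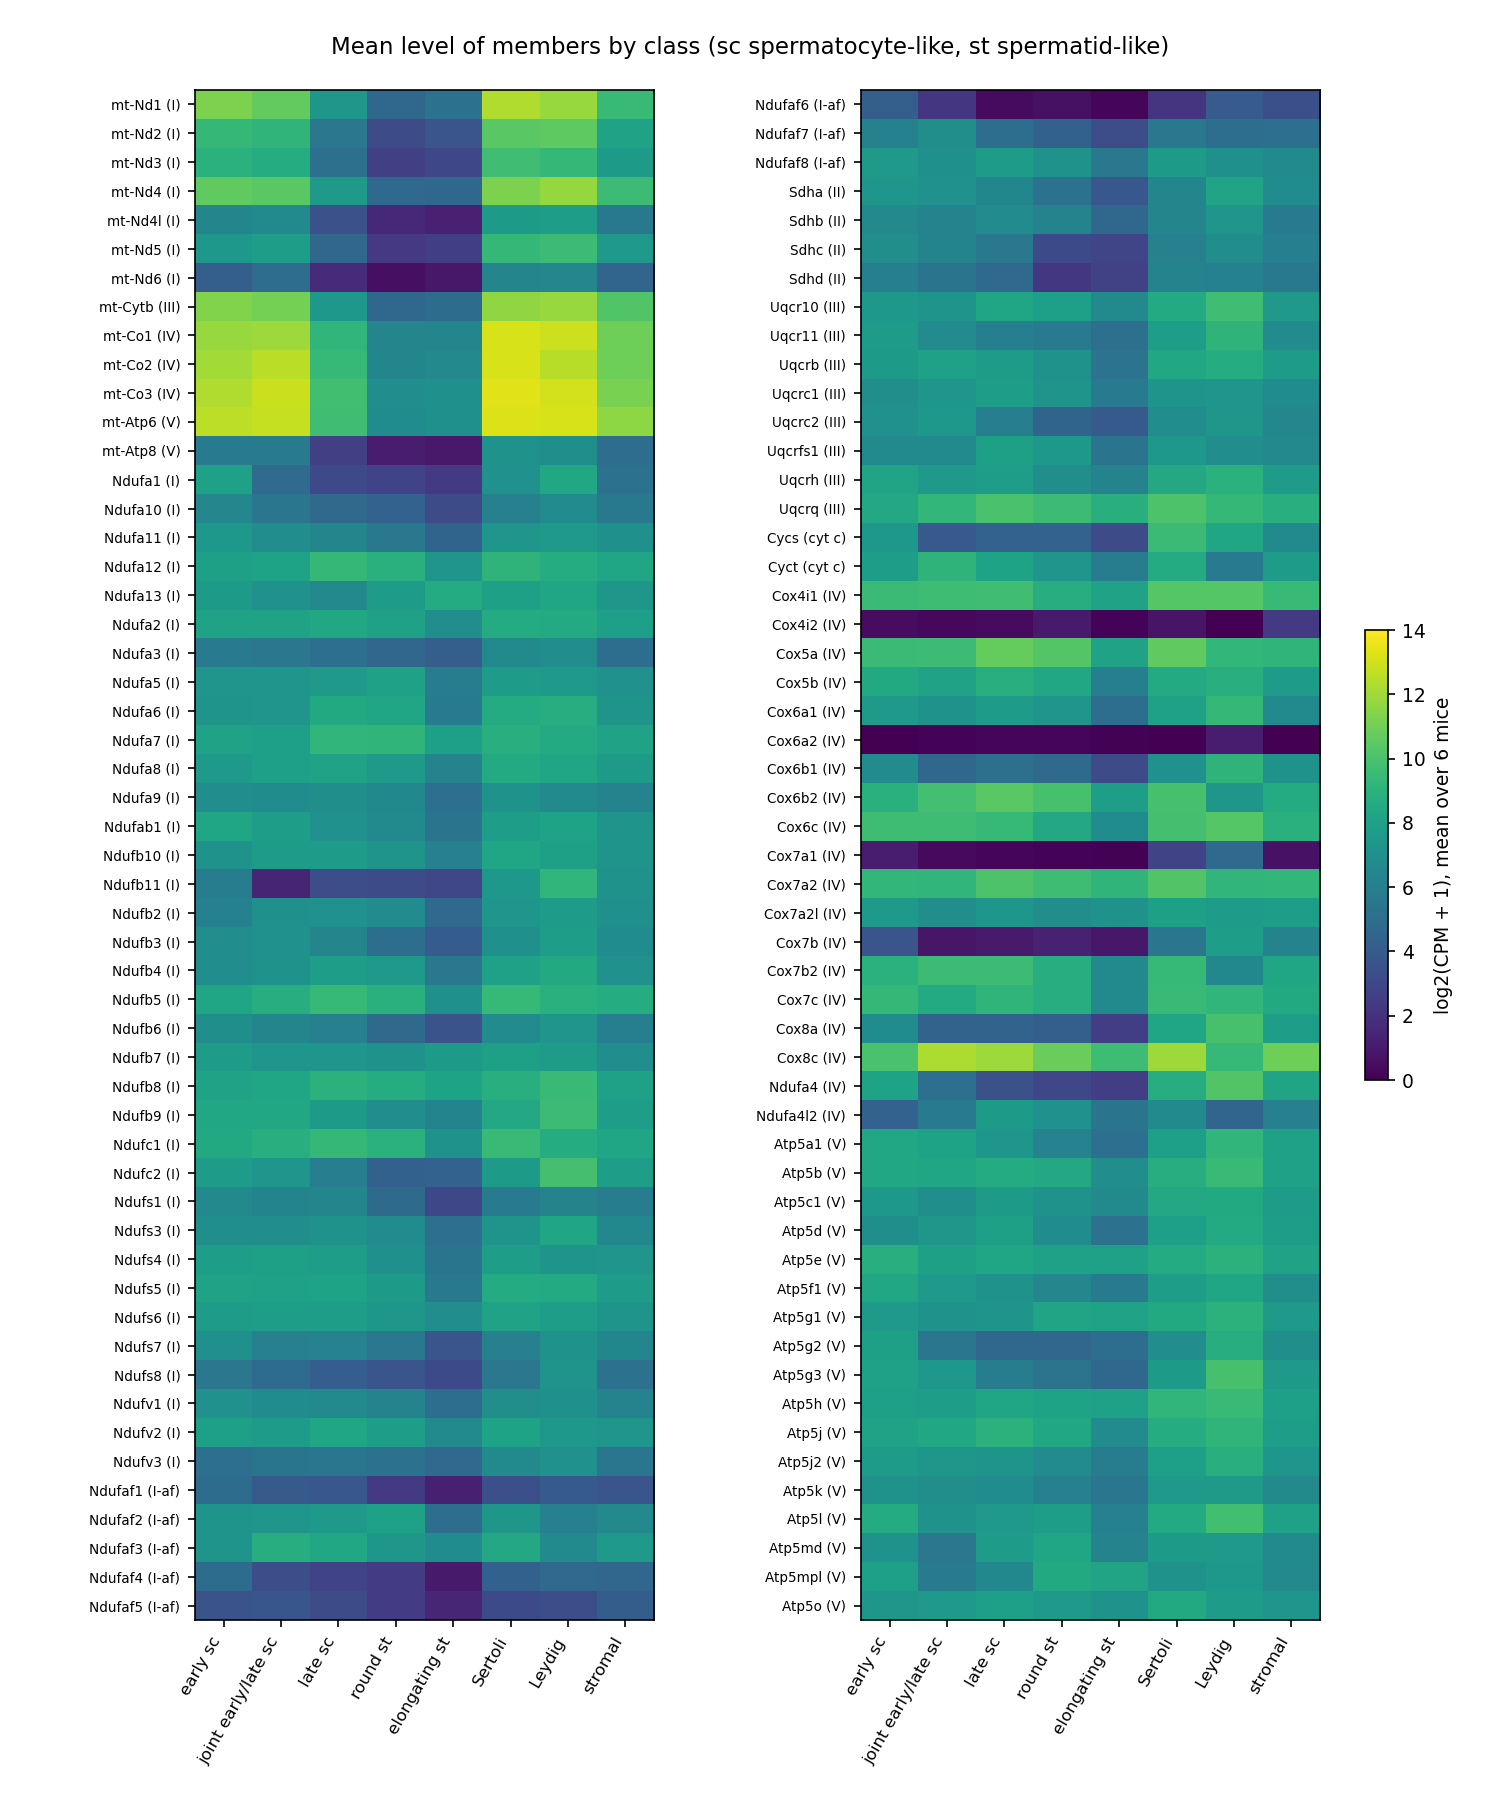
Level of 106 members as log2 of the mean CPM over 6 mice plus 1 (colour) in the 5 germ cell classes (sc spermatocyte-like, st spermatid-like) and 3 somatic classes, with the complex in brackets (I-af, complex I assembly factor; V, ATP synthase). Mitochondrial genes are high in the early and joint classes and low after them, Cox8c is the brightest nuclear gene in the joint class (4882 CPM), and the X-linked Ndufb11 is low there (1.76 CPM).

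In the pairs of Cyct, Cox6b2, Cox7b2 and Cox8c the testis gene averaged more than its partner in all 5 germ cell classes, with the smallest margin for Cyct in the early class. Cyct stood at 538, 573 and 511 CPM in nicotine mice against 575, 558 and 536 CPM in control mice in the joint class, where Cycs had 10.2, 12.5 and 13.04 CPM in nicotine mice against 17.1, 18.5 and 14.5 CPM in control mice. Every mouse had far more Cyct than Cycs there, while the 2 were close in the early class, at 224 ± 38.7 CPM for Cyct and 176 ± 25.9 CPM for Cycs (SD, n = 6). Cyct then averaged 273, 154 and 59.9 CPM in the late, round and elongating classes, and Cycs 20.2, 19.8 and 8.19 CPM. Cyct lies on chromosome 2 (76353942 to 76360450, GRCm38) and Cycs on chromosome 6 (50562563 to 50566538). The share of Cyct in the pair was 56.0, 97.5, 93.1, 88.6 and 87.9% from the early to the elongating class. The early value rests on where the deep cells are placed, and was 91.5 to 93.2% under the alternatives that put them with the early class. The early and joint levels of Cyct and Cycs rest on this placing too. Their order under those alternatives is not given.

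Complex IV isoforms showed the same order of partners. Cox6b2 averaged 481, 898, 1367, 980 and 219 CPM, and Cox6b1 109, 24.1, 34.5, 27.8 and 8.40 CPM, so that Cox6b2 made up 81.4, 97.4, 97.5, 97.2 and 96.3% of the pair. Cox7b2 averaged 485, 787, 785, 415 and 103 CPM, and its X-linked partner Cox7b 11.8, 0.789, 1.03, 1.48 and 0.843 CPM, a Cox7b2 share of 97.6, 99.9, 99.9, 99.6 and 99.2%. Cox8c made up 90.4, 99.6, 99.5, 99.0 and 99.4% of its pair with Cox8a, which averaged 109, 20.8, 20.7, 18.2 and 4.99 CPM. Under the main settings, the widely expressed gene of each of these pairs was highest in the early class and the testis gene in the joint or late class. Ndufa4l2, a paralogue of the complex IV subunit Ndufa4, reached a high share later than the others, with 7.19, 62.4, 94.99, 95.04 and 89.5% of its pair. Ndufa4 averaged 277, 34.1, 10.3, 7.03 and 4.83 CPM and Ndufa4l2 20.1, 56.5, 195, 136 and 41.6 CPM. The isoforms known from lung, heart and muscle stayed low. Cox4i2, Cox6a2, Cox7a1 and Cox8b averaged at most 0.253% of their pairs over the mice in each of the 5 germ cell classes. The highest value of a single mouse was 1.52%, for Cox8b in the joint class of nicotine mouse 1.

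**Figure D4:**
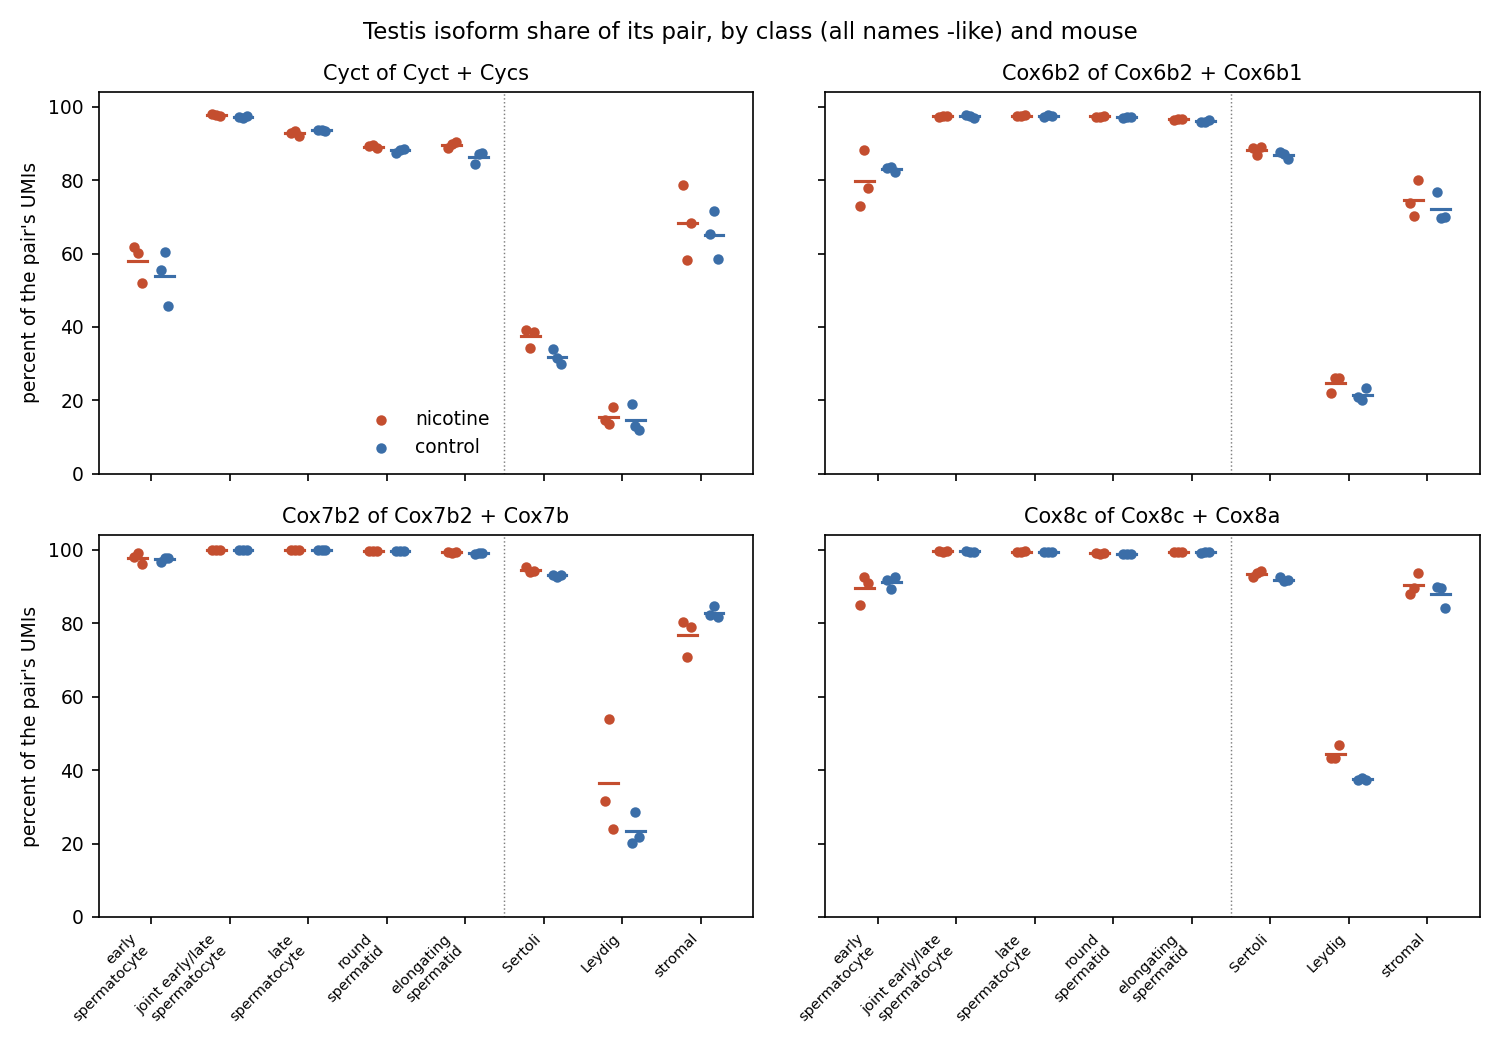
Percent of each pair's UMIs from the testis isoform Cyct, Cox6b2, Cox7b2 or Cox8c by class, with 1 point per mouse and a line at the group mean, nicotine left of control. The Cyct share averages 56.0% in the early class and 97.5% in the joint class, and Leydig-like cells have the lowest share in each pair, down to 15.0% for Cyct.

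Testis isoforms were also read in somatic classes, where free RNA from broken germ cells can enter droplets. Prm2, a protamine of elongating spermatids, stood at 5427 CPM in Sertoli-like and 1556 CPM in Leydig-like cells, against 65078 CPM in elongating spermatids. Cox8c had 3968 CPM in Sertoli-like and 665 CPM in Leydig-like cells, and the ratio of Cox8c to Cox6b2 was 4.10 in Sertoli-like, 3.95 in Leydig-like, 4.85 in stromal-like and 3.78 in macrophage-like cells. In the 5 germ cell classes that ratio ran over a wider range, at 2.13, 5.44, 2.89, 1.83 and 3.66. Per cell, the testis isoforms had a like low level in all somatic classes: Cyct averaged 0.410 UMIs per cell in Sertoli-like, 0.370 in Leydig-like, 0.364 in stromal-like and 0.402 in macrophage-like cells, and Cox8c 4.21, 4.31, 3.45 and 3.83. At this level free RNA and the cells' own transcripts were not told apart. Elongating spermatids lay near it, with 0.431 UMIs per cell of Cyct, 5.79 of Cox8c and 0.743 of Cox7b2, which had 0.711 in Sertoli-like cells. The low-UMI round and elongating classes lay there too, with 0.401 and 0.382 UMIs per cell of Cyct. The joint, late and round classes lay above it, with 4.16, 5.17 and 2.62 UMIs per cell of Cyct and 36.9, 74.5 and 30.2 of Cox8c, and the early class was nearer to it, with 1.53 and 7.002. Leydig-like cells, which make testosterone, had the lowest testis isoform share of the 13 classes in each pair: Cyct made up 15.0%, Cox6b2 23.1%, Cox7b2 30.003%, Cox8c 41.0% and Ndufa4l2 1.85% of their pairs. In Sertoli-like cells, the supporting cells of the germ line, these shares were 34.6, 87.6, 93.7, 92.7 and 19.5%, and Cycs averaged 732 CPM.

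X-linked members were low from the joint class on. Ndufa1, a small accessory subunit of complex I on chromosome X (37187588 to 37191163), had 238, 224 and 319 CPM in nicotine mice against 322, 170 and 270 CPM in control mice in the early class. In the joint class it had 29.0, 19.1 and 35.1 CPM in nicotine mice against 32.2, 26.1 and 32.3 CPM in control mice, below every early value. Ndufb11, another accessory subunit of complex I (20615326 to 20617619), had 64.8, 48.1 and 73.4 CPM in nicotine mice against 59.2, 73.7 and 44.98 CPM in control mice in the early class. Its joint-class values were 1.46, 2.64 and 2.01 CPM in nicotine mice against 1.61, 1.98 and 0.890 CPM in control mice, again with no overlap between the classes. With Cox7b (106015700 to 106022450), the sum of the 3 X-linked members was 330, 31.5, 17.5, 16.1 and 11.9 CPM from the early to the elongating class, and the sum of the autosomal nuclear members 20134, 23054, 26697, 18720 and 8529 CPM. X-linked members thus made up 1.62, 0.137, 0.0649, 0.0860 and 0.139% of nuclear member UMIs, against 3.45% in Leydig-like and 1.13% in Sertoli-like cells. In the deep cells of the joint class the sum was 62.0, 40.3 and 71.7 CPM in nicotine mice against 55.6, 45.8 and 58.5 CPM in control mice. Low levels were not restricted to the X chromosome, as the autosomal Ndufa4 had 277 CPM in the early and 10.3 CPM in the late class.

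Some nuclear members varied far more over the stages than the rest. Ranges are given between the highest and the lowest of all 10 germ cell classes, low-UMI ones included, and ran from 47.0-fold (mt-Co1) to 103-fold (mt-Cytb) for the mitochondrial members. Among nuclear members with a highest mean of at least 50 CPM, the widest were those of Ndufa1 (61.2-fold), Ndufa4 (57.4-fold), Ndufb11 (34.4-fold), Atp5g2 (24.0-fold), Cox8a (21.9), Cycs (21.5), Sdhc (17.5), Sdhd (17.3), Ndufaf7 (13.7), Ndufs1 (13.2), Cox6b1 (12.9) and Sdha (12.9). At lower levels the assembly factors Ndufaf4 and Ndufaf1 had ranges of 29.3-fold and 21.9-fold, and Cox7b 14.9-fold. Among the 5 classes of normal depth, both membrane anchors of complex II were highest in the early class: Sdhc averaged 118, 77.3, 47.4, 7.79 and 6.74 CPM and Sdhd 64.6, 41.2, 26.9, 3.82 and 5.47 CPM. Genes for the c subunit, the proton-carrying ring of ATP synthase, changed places. Atp5g1 made up 26.9, 38.8, 63.8, 81.5 and 82.1% of the UMIs of the 3 genes, Atp5g3 37.2, 49.0, 25.1, 11.7 and 7.77%, and Atp5g2 35.9, 12.3, 11.2, 6.80 and 10.1%, although the 3 encode the same mature protein.

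A few members were highest after meiosis. Ndufa13, a complex I subunit, had 393, 358 and 412 CPM in nicotine mice against 404, 341 and 406 CPM in control mice in elongating spermatids, and averaged 194, 136, 94.0, 215 and 386 CPM over the classes. It was the only nuclear member with its highest mean in the elongating class, and its annotation overlaps Yjefn3 on the same strand, so reads of the 2 genes may be mixed. Atp5mpl, a small subunit of ATP synthase, had 388, 291 and 417 CPM in nicotine mice against 408, 255 and 398 CPM in control mice in round spermatids, with class means of 239, 56.1, 92.5, 359 and 293 CPM. Atp5md, another small subunit, averaged 148, 45.2, 213, 301 and 75.8 CPM. In each of these genes the 2 groups of mice overlapped. These 3 genes were chosen after their values were seen.

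Nicotine was not accompanied by a separation of the 2 groups in the share of either genome. In the joint class the mitochondrial share was 3.99, 3.40 and 2.57% in nicotine mice against 2.15, 2.82 and 3.59% in control mice, means of 3.32 ± 0.717 and 2.85 ± 0.719% (SD, n = 3 each). In the late class it was 0.457, 0.358 and 0.266% in nicotine mice against 0.245, 0.345 and 0.498% in control mice, and in round spermatids 0.0568, 0.0434 and 0.0427% in nicotine mice against 0.0357, 0.0462 and 0.0683% in control mice. The groups overlapped in all 13 classes tested, for the mitochondrial and for the nuclear share alike. With 3 mice against 3, an exact permutation test of such a value cannot give a p below 0.1. Single mice kept their place across classes: within its group, control mouse 1 had the lowest mitochondrial share in 12 of 13 classes and control mouse 3 the highest in 12, and nicotine mouse 3 had the lowest in 13 of 13 and nicotine mouse 1 the highest in 11. The order thus followed the library and not the cell class. With 1 mouse per library, the handling of a library cannot be told apart from the animal. For the nuclear share, nicotine mouse 3 was highest of its group and control mouse 2 lowest of all mice in 13 of 13 classes.

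Single members were tested in each class with edgeR's quasi-likelihood test, with Benjamini-Hochberg adjustment over all genes of the class and a threshold of 0.05. Across the 13 classes, 6 calls were made among 87 to 105 members tested per class, all of them lower in nicotine mice and all in the low-UMI joint early/late class. There, 6 of 100 members were called, beside 12.4% of all 11532 genes tested (873 higher and 558 lower), a share above that of the members. Uqcrc1, a core subunit of complex III, had 167, 176 and 199 CPM in nicotine mice against 212, 266 and 229 CPM in control mice. The groups did not overlap, and the log2 fold change was -0.50 (SE 0.11, edgeR adjusted p = 0.00623). Ndufaf3, an assembly factor of complex I, had 517, 520 and 554 CPM in nicotine mice against 613, 702 and 581 CPM in control mice (log2 fold change -0.37, SE 0.11, edgeR adjusted p = 0.0289). It was lower in every nicotine mouse than in any control mouse. The same held for Atp5d, the delta subunit of ATP synthase, with 201, 208 and 208 CPM in nicotine mice against 249, 264 and 221 CPM in control mice (-0.37, SE 0.11, edgeR adjusted p = 0.0260). Calls were also made for Atp5c1, the gamma subunit of ATP synthase (165, 175 and 175 CPM in nicotine mice against 185, 241 and 180 CPM in control mice, log2 fold change -0.35, edgeR adjusted p = 0.0448), and Ndufa9, an accessory subunit of complex I (128, 131 and 137 CPM in nicotine mice against 154, 159 and 150 CPM in control mice, -0.34, edgeR adjusted p = 0.0395). In neither gene did the groups overlap. The log2 fold changes include edgeR's scaling between libraries. From the CPM means alone the log2 ratio was smaller in size in each named gene. It was -0.38 for Uqcrc1, -0.25 for Ndufaf3, -0.25 for Atp5d, -0.23 for Atp5c1 and -0.22 for Ndufa9. The median log2 fold change over the 100 members was -0.12, beside 0.01 over all genes, and the mitochondrial members had a median of 0.20. These medians include the same scaling. DESeq2 called 4 members in this class. The number of edgeR calls rested on single mice: it was 0 without nicotine mouse 1, 0 without nicotine mouse 2, 2 without control mouse 1, 2 without control mouse 2 and 24 (11 higher, 13 lower) without control mouse 3.

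These calls came with a shift in which cells filled the class. It held 2 clusters: fitted alone, a choice made after seeing the data, cluster 5 gave calls for 25 of 100 members (1 higher, mt-Atp8, and 24 lower) beside 28.2% of 10537 genes, and cluster 16 for 0 of 99 members by edgeR beside 0.0% of its genes, with 4 members (and 4.11% of genes) at an unadjusted p under 0.05. In cluster 5, cells of 5000 UMIs or more made up 6.33, 5.39 and 4.94% of cells in nicotine mice against 11.4, 15.9 and 9.83% in control mice, without overlap. They held 44.0, 41.3 and 43.8% of the cluster's UMIs in nicotine mice against 73.4, 84.9 and 68.5% in control mice. Late spermatocyte markers made up 0.857, 0.903 and 0.950% of the cluster's UMIs in nicotine mice against 1.06, 1.16 and 0.982% in control mice, and round spermatid markers 0.0328, 0.0391 and 0.0404% in nicotine mice against 0.0200, 0.0148 and 0.0295% in control mice. Both marker lists separated the groups in the same cluster. So did early spermatocyte markers, at 0.141, 0.146 and 0.144% in nicotine mice against 0.131, 0.125 and 0.133% in control mice. Elongating spermatid markers overlapped, at 0.472, 0.428 and 0.646% in nicotine mice against 0.561, 0.257 and 0.569% in control mice. Late markers were thus lower in nicotine mice, and early and round markers higher. With cells of 5000 UMIs or more left out of the class, also chosen after seeing the data, 0 of 100 members were called by edgeR beside 0.393% of 9928 genes, and 4 had an unadjusted p under 0.05, as did 7.81% of the genes. Uqcrc1 then had a log2 fold change of -0.24 (edgeR adjusted p = 0.692), Ndufaf3 -0.02, Atp5d -0.16, Atp5c1 -0.04 and Ndufa9 -0.07. The 6 lower calls did not remain once the deep cells were left out. That cut also removed counts, and in cluster 5 a larger part of them in control than in nicotine mice. The part of this loss of counts in the change was not tested.

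No member was called by edgeR in the other 12 classes. In the 5 germ cell classes of normal depth, the share of all genes called was 0.0% in the early class, 0.0% in the joint, 1.63% in the late, 0.0% in the round and 0.00691% in the elongating class. The number of members at an unadjusted edgeR p under 0.05 was 1 of 100 (early), 5 of 102 (joint), 5 of 103 (late), 1 of 105 (round) and 5 of 103 (elongating). Of all genes, 3.86, 7.75, 14.1, 3.69 and 5.46% lay at that level in these classes. DESeq2 called none of them. In the low-UMI early, late, round and elongating classes the share of genes called was 0.774, 0.0359, 0.148 and 0.0137%, with 16 of 99, 2 of 101, 13 of 87 and 5 of 94 members at an unadjusted edgeR p under 0.05, beside 11.5, 5.33, 10.2 and 7.22% of all genes. In Sertoli-like, Leydig-like and stromal-like cells it was 0.324, 0.0496 and 0.0274%, with 3 of 101, 2 of 99 and 6 of 88 members at that level, beside 8.34, 4.15 and 7.19% of all genes. DESeq2 called no member in these 7 classes either.

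Mitochondrial members moved together within a class, up in some and down in others. Their median log2 fold change was 0.22 in the joint class, with 13 of 13 above 0, and -0.23 in elongating spermatids, with 13 of 13 below 0, beside all-gene medians of 0.00 and -0.01. It was 0.70 in the low-UMI early class (12 above 0), -0.70 in the low-UMI late class (13 of 13 below) and -0.51 in the low-UMI round class (8 of 9 tested below). None of these genes was called in those classes by edgeR. The lowest adjusted p was 0.133 in the low-UMI early class, where mt-Atp8 had 27.2, 25.5 and 18.4 CPM in nicotine mice against 12.4, 9.18 and 17.99 CPM in control mice (log2 fold change 0.83, SE 0.26, edgeR). In the low-UMI round class it was 0.131, for mt-Co1 with 280, 280 and 187 CPM in nicotine mice against 298, 324 and 448 CPM in control mice (-0.55, SE 0.16, edgeR). Neither gene overlapped between the groups, and in mt-Atp8 the gap was narrow. Calls in the low-UMI early class depended on the settings, with 6 members called higher by edgeR without a low-count filter, 7 with a stricter cell filter, 5 without nicotine mouse 3, 3 without control mouse 1 and 3 without control mouse 3. Nicotine mouse 3 and control mouse 3, named above for their low and high mitochondrial shares, gave the extreme values in mt-Co1.

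**Figure D5:**
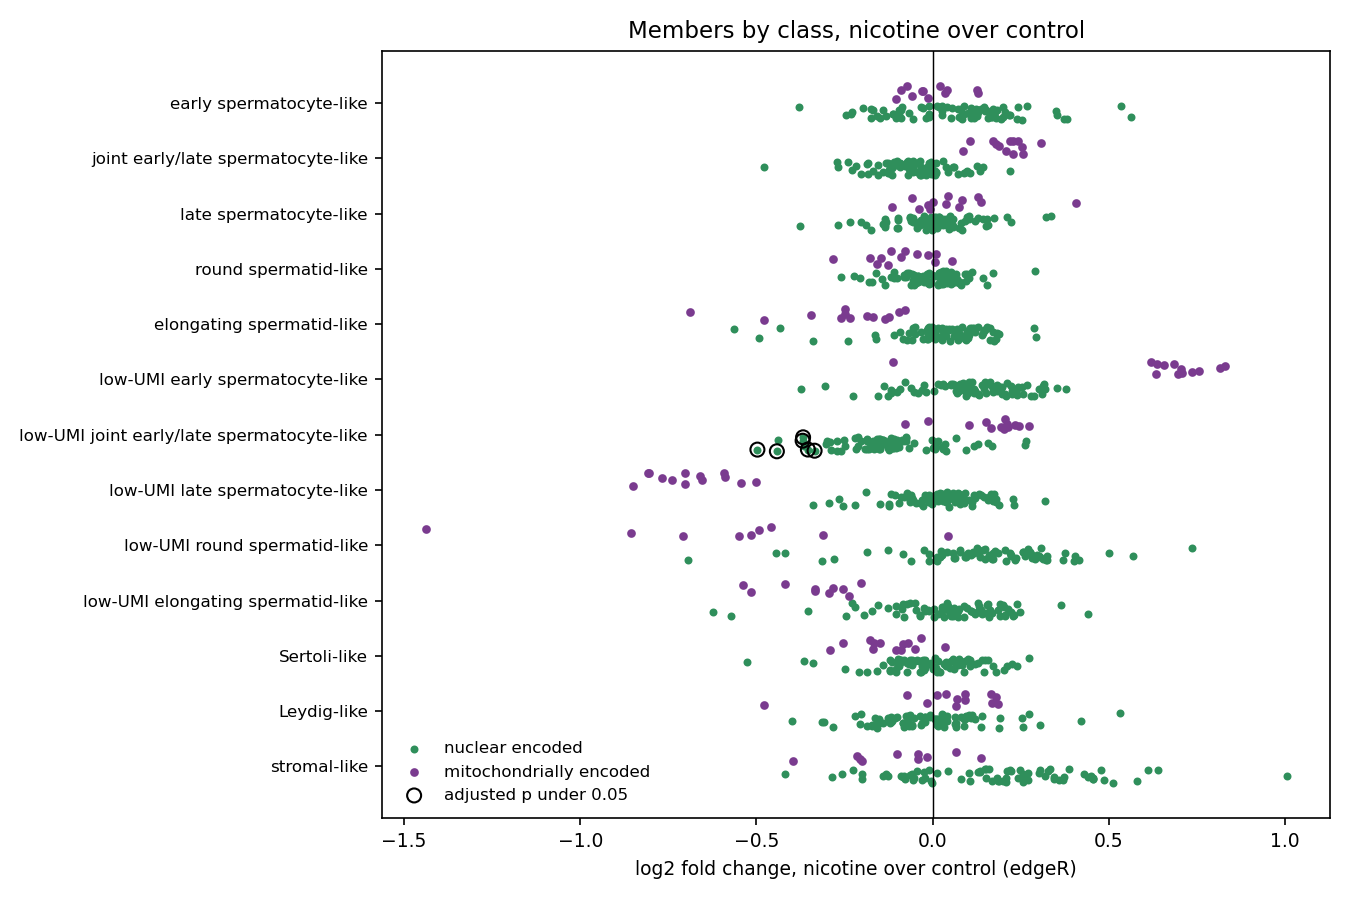
log2 fold change, nicotine over control, of each member tested in each of the 13 classes by edgeR, with mitochondrially encoded members above nuclear encoded ones and rings around members with an adjusted p under 0.05. The 6 ringed members are all in the low-UMI joint class, between -0.50 and -0.34, and the mitochondrial median is 0.22 in the joint class and -0.23 in elongating spermatids.

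Elsewhere, Sdhd and Ndufc2 in the late class came nearest to a call. Sdhd, an anchor of complex II, had 22.8, 24.5 and 22.8 CPM in nicotine mice against 28.2, 35.2 and 28.1 CPM in control mice (log2 fold change -0.38, SE 0.11, edgeR adjusted p = 0.0791). Ndufc2, an accessory subunit of complex I, had 56.9, 61.3 and 54.1 CPM in nicotine mice against 70.0, 69.5 and 69.9 CPM in control mice (-0.27, SE 0.08, edgeR adjusted p = 0.0807). Atp5g1 had 159, 146 and 170 CPM in nicotine mice against 138, 134 and 140 CPM in control mice (0.21, SE 0.07, edgeR adjusted p = 0.138). In all 3 the groups did not overlap, but none passed the threshold. Stage markers also separated the groups in this class. The 12 early spermatocyte markers made up 0.0817, 0.0805 and 0.0808% of UMIs in nicotine mice against 0.0821, 0.0847 and 0.0865% in control mice, and the 10 round spermatid markers 0.213, 0.221 and 0.211% in nicotine mice against 0.164, 0.180 and 0.183% in control mice. Sdhd and Ndufc2 averaged less in round spermatids than in the late class and Atp5g1 more, and the part of the stage markers' shift in these differences was not tested. The Atp5g1 part of the subunit c genes in that class was 68.1, 63.1 and 68.3% in nicotine mice against 61.1, 60.4 and 61.6% in control mice. Stromal-like Ndufb6, an accessory subunit of complex I, had 84.2, 106 and 69.5 CPM in nicotine mice against 57.1, 32.1 and 38.9 CPM in control mice (1.00, SE 0.40, edgeR adjusted p = 0.489). That class was filled unequally, as its cluster 25 held 18.2 to 31.0% of the cells in nicotine mice against 32.4 to 42.4% in control mice, and the part of this in the difference was not tested. Leydig-like Sdhc had 134, 137 and 123 CPM in nicotine mice against 92.4, 110 and 87.8 CPM in control mice (0.42, edgeR adjusted p = 0.998).

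For the isoform pairs, the Cyct share was higher in every nicotine mouse than in any control mouse in 5 of 13 classes, lower in none and overlapping in 8. In the joint class it was 98.1, 97.9 and 97.5% in nicotine mice against 97.1, 96.8 and 97.4% in control mice, and in round spermatids 89.2, 89.5 and 88.7% in nicotine mice against 87.5, 88.2 and 88.6% in control mice. In elongating spermatids it was 88.6, 89.7 and 90.5% in nicotine mice against 84.3, 87.0 and 87.5% in control mice, and in Sertoli-like cells 39.2, 34.4 and 38.8% in nicotine mice against 33.9, 31.6 and 29.9% in control mice. The gaps were small beside the differences between stages, and classes of 1 mouse share its library, so they are not independent. With 3 mice against 3, an exact permutation test of such a share cannot give a p below 0.1. Separation of the groups was not counted over all genes, so the number of classes has no background here. In elongating spermatids, Sertoli-like cells and the low-UMI round class, which also separated, Cyct per cell was at the level that the somatic classes shared. Leydig markers (9 genes) made up 0.00137, 0.00155 and 0.00140% of UMIs in nicotine mice against 0.00217, 0.00332 and 0.00215% in control mice in elongating spermatids, and were also lower in every nicotine mouse in round spermatids and Sertoli-like cells. As a list they overlapped in the joint class. Of its genes only Insl3 and Cyp17a1 were read singly there. They averaged 0.761 and 1.26 CPM in nicotine mice against 2.34 and 2.63 CPM in control mice, without overlap and at low levels. These genes do not stand for the list. In the low-UMI round class the 12 Sertoli markers were lower in every nicotine mouse. The Leydig list is not given for that class, nor the Sertoli list for the others. No shift common to these classes is therefore shown. Sertoli-like cells numbered 556, 603 and 644 in nicotine mice against 1002, 694 and 922 in control mice, and Leydig-like cells 47, 45 and 47 in nicotine mice against 63, 94 and 80 in control mice. The part of these shifts in the Cyct share was not tested. Neither gene of the pair passed the test alone. In the joint class the log2 fold change was -0.48 for Cycs (SE 0.19, edgeR adjusted p = 0.541) and -0.04 for Cyct (edgeR adjusted p = 0.940), and in elongating spermatids -0.34 for Cycs (edgeR adjusted p = 0.873) and 0.14 for Cyct (edgeR adjusted p = 0.878). Sertoli-like Cycs had 717, 725 and 621 CPM in nicotine mice against 739, 791 and 800 CPM in control mice (-0.21, SE 0.09, edgeR adjusted p = 0.527). Of the Sertoli-like cells, cluster 18 held 21.8, 17.6 and 21.4% in nicotine mice against 12.8, 15.6 and 14.9% in control mice and cluster 21 held 9.53, 8.96 and 9.32% in nicotine mice against 13.97, 11.5 and 14.1% in control mice, a shift whose part was not tested. Among the other testis isoforms, the share separated the groups in a few classes: Cox6b2 was higher in 3 classes and lower in 1, Cox7b2 higher in 2 and lower in 1, Cox8c higher in 3 and lower in none, and Ndufa4l2 in none either way. The same limits hold for these counts.

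Genes of the pathways around the respiratory chain were read from the same fits. Calls were made in 2 of the 13 classes. In the low-UMI early class Tfam, which packages mitochondrial DNA and helps to start its transcription, had 46.7, 52.1 and 57.8 CPM in nicotine mice against 83.8, 78.4 and 80.6 CPM in control mice (log2 fold change -0.61, SE 0.13, edgeR adjusted p = 0.0156). Nrf1, a transcription factor of many nuclear respiratory genes, had 18.1, 13.03 and 11.1 CPM in nicotine mice against 22.9, 32.5 and 28.1 CPM in control mice (-0.97, SE 0.24, edgeR adjusted p = 0.0335). Both were lower in every nicotine mouse, in the class where mitochondrial members had a median log2 fold change of 0.70. They were 2 of the 4 regulators tested there, and Tfam was 1 of 10 tested genes of mitochondrial transcription and replication. Of all genes in the class 0.774% were called, 4 higher and 88 lower, so their direction was that of most calls there. In the same class round spermatid markers made up 0.161, 0.179 and 0.172% of UMIs in nicotine mice against 0.181, 0.188 and 0.183% in control mice, without overlap, and their part in these calls was not tested. Late spermatocyte markers (0.596% of UMIs) outweighed early ones (0.125%) in that class, and Sycp3, a meiotic chromosome axis protein, averaged 135 CPM there and 1844 CPM in the early class, so its name rests on few markers. In the low-UMI joint class, 2 of 27 assembly genes outside the symbol rule were called, a share below the 12.4% of all genes, Cox19 lower (-0.46, edgeR adjusted p = 0.0308) and Ecsit higher (0.70, edgeR adjusted p = 0.0490). Vdac3, a pore of the outer mitochondrial membrane, was 1 of 5 carriers and pores tested there and had 614, 685 and 626 CPM in nicotine mice against 746, 850 and 727 CPM in control mice (-0.39, edgeR adjusted p = 0.0212). Idh3b, a subunit of the citrate cycle enzyme isocitrate dehydrogenase, was 1 of 13 pyruvate and citrate cycle genes tested there and had 43.5, 51.1 and 53.6 CPM in nicotine mice against 69.2, 72.1 and 69.2 CPM in control mice (-0.62, edgeR adjusted p = 0.00491). With cells of 5000 UMIs or more left out of the low-UMI joint class, none of these 4 genes was called: the log2 fold change was -0.09 for Cox19, 0.10 for Ecsit, -0.04 for Vdac3 and -0.26 for Idh3b (edgeR adjusted p = 0.948, 0.952, 0.959 and 0.866).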

How the data were processed

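Single-cell RNA was measured in 6 testis libraries, 3 from nicotine and 3 from control mice. The files hold UMI counts per gene and barcode as the authors deposited them. Cell Ranger 7.2.0 and the GRCm38/mm10 genome are named in the submitters' processing notes, and the sources used here do not say how barcodes were called as cells. Between 25 and 54 barcodes (0.216 to 0.467%) were shared by each pair of libraries.

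From these counts, cells with at least 500 UMIs, 250 genes and under 20% mitochondrial UMIs were kept, which removed 2 to 118 barcodes per library for their mitochondrial percentage. Doublets were removed by Scrublet rank, 0.8% per 1000 cells, because its own threshold marked 0.0 to 1.95% of barcodes. Clustering used scanpy 1.11.5 (Python 3.11.15, igraph 0.11.9) with 2000 variable genes, none of them members, 30 principal components, 15 neighbours and resolution 1. A cluster was named from markers at 1.5-fold or more in at least 10% of its cells, with at least 3 such markers, and jointly where 2 scores lay within 0.15; clusters of low UMI number carry that prefix. This naming rule was refined after the clusters had been seen.

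Counts were summed per mouse and class, the mouse being the replicate, for classes with at least 20 cells in every mouse. Macrophage-like cells (203) did not reach this and are given as levels. Each class was fitted on all genes with edgeR 4.0.16 (R 4.3.3, TMM scaling, filterByExpr, robust quasi-likelihood), with adjusted p under 0.05 as a call. DESeq2 1.42.0 was an alternative. Precision is limited by 3 mice per group. On simulated counts for the low-UMI joint class, 41.8% of genes changed 1.5-fold, 74.6% of those changed 2-fold and 90.9% of those changed 4-fold were recovered. Of 147 calls on these counts 9 were false. False calls were 18 of 175 in the late class, 16 of 178 in round spermatids and 1 of 113 in Leydig-like cells. Each gene was simulated from 1 mean apart from the set changes, so shifts in cell makeup were not part of it. Over the classes, recovery at 1.5-fold ran from 13.4% in stromal-like cells to 56.7% in round spermatids, with 17.9% in Leydig-like cells and 26.9% in the early class.

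The members, the marker and pathway lists and the tests were chosen with earlier results of these data known. Genes named are all mitochondrial members, both genes of each isoform pair, the X-linked members, the called members or, without calls, members among those of smallest p, the 3 most abundant nuclear members per stage and the 12 with the widest range over the germ cell classes among those with a highest mean of at least 50 CPM. Ndufa4 and Ndufa4l2 were added as a pair after their values were seen. 1 member with a call is counted but not reported by name here.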

Additional observations from a re-analysis of the deposited data

Results flagged for a closer look

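In 3 readouts all nicotine mice lay above all control mice in some classes and below them in others, which singled them out for a second look; the difference between the classes was not tested, and each gap is small. The Cox6b2 share of its pair was 97.7, 97.3 and 97.1% in nicotine mice against 96.5, 96.3 and 96.5% in control mice in the low-UMI late class (log2 ratio of the means 0.0144). In the low-UMI round class it was 98.2, 98.9 and 97.5% in nicotine mice against 96.6, 94.7 and 96.7% in control mice (0.0322), and in the low-UMI elongating class 98.3, 97.1 and 98.6% in nicotine mice against 97.0, 96.3 and 96.2% in control mice (0.0216). In the low-UMI joint class it lay the other way, at 97.8, 97.7 and 97.8% in nicotine mice against 98.2, 98.3 and 98.2% in control mice (-0.00728).

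The Cox7b2 share was higher in nicotine mice in Sertoli-like cells, with 95.3, 93.8 and 94.3% in nicotine mice against 93.2, 92.7 and 93.2% in control mice (0.0221), and in the low-UMI elongating class, with 99.7, 100 and 100% in nicotine mice against 99.7, 99.2 and 99.3% in control mice (0.00737). It was lower in stromal-like cells, with 80.4, 70.7 and 78.8% in nicotine mice against 82.3, 84.6 and 81.8% in control mice (-0.113). Cluster makeup also separated the groups in both somatic classes: cluster 25 held 24.7% of stromal-like cells in nicotine mice and 38.4% in control mice, and cluster 18 held 20.3% of Sertoli-like cells in nicotine mice and 14.4% in control mice (means of 3). Complex I assembly factors made up 0.0207, 0.0204 and 0.0218% of UMIs in nicotine mice against 0.0202, 0.0197 and 0.0201% in control mice in elongating spermatids (0.0677). In round spermatids they made up 0.0559, 0.0586 and 0.0594% in nicotine mice against 0.0601, 0.0607 and 0.0605% in control mice (-0.0605). There cluster 3 held 26.1, 22.8 and 27.5% of the cells in nicotine mice against 16.4, 17.6 and 20.3% in control mice, and the part of these shifts in makeup was not tested.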

How the results depend on the processing

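The number of member calls over all classes, 6 above, depended on the settings. It was 16 without a low-count filter, 21 with the replicate number as a block (13 higher, 8 lower), 2 at resolution 2, 0 without the mitochondrial filter and 0 with members among the variable genes. Leaving out 1 mouse gave 0 to 28 calls: 28 without control mouse 3, 11 without nicotine mouse 3, 8 without control mouse 1, 3 without control mouse 2, 1 without nicotine mouse 2 and 0 without nicotine mouse 1. Whether mouse numbers pair the libraries was not settled. In 0 of 13 classes were all 3 correlations between same-numbered mice over 0.1, but single ones exceeded it. In round spermatids they were 0.0153, 0.566 and 0.0540 for mice 1, 2 and 3. Per class, 2 to 5 of the 6 mice deviated most like the mouse of their own number. In the low-UMI joint class the calls were 25 for cluster 5 alone, 0 for cluster 16 alone, 0 without the deep cells, without the mitochondrial filter, with the stricter filter (1000 UMIs, under 5% mitochondrial) and with members among the variable genes, 2 at resolution 2, and 0 to 24 with 1 mouse left out, the 24 (11 higher, 13 lower) without control mouse 3. The sign of the log2 fold change turned for Atp5c1 (0.121) and Ndufaf3 (0.0977) with the stricter filter, and in the joint class for Ndufs3 (0.0273) and Atp5o (0.0257) with members among the variable genes. In the low-UMI early class the 0 calls became 6 without a low-count filter, 12 with the replicate block, 7 with the stricter filter and 0 to 5 with 1 mouse left out, all higher in nicotine mice. The cause of these changes was not tested.

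Stage values moved with the settings. In the early and joint classes this went with the placing of the deep cells, and in the other classes the cause was not tested. Without the mitochondrial filter, with the stricter filter and with doublets left in, the early class had mitochondrial shares of 1.75, 1.41 and 1.76%, nuclear shares of 2.83, 2.85 and 2.81%, and isoform shares of 91.5, 93.2 and 91.7% (Cyct), 95.6, 96.4 and 95.6% (Cox6b2), 99.5, 99.6 and 99.5% (Cox7b2) and 98.9, 99.1 and 98.9% (Cox8c). Without the mitochondrial filter, with doublets left in and with members among the variable genes, the joint class had mitochondrial shares of 4.28, 3.89 and 4.25% and nuclear shares of 1.75, 1.80 and 1.76% (1.76% with the stricter filter), round spermatids mitochondrial shares of 0.0366, 0.0362 and 0.0320% (0.0678% at resolution 2), and the late class Cyct shares of 92.0, 91.6 and 91.7%. Doublets left in gave elongating shares of 0.114% (mitochondrial) and 1.00% (nuclear) and Cox8c shares of 99.4% (late), 98.9% (round) and 99.2% (elongating); members among the variable genes gave late shares of 99.8% for Cox7b2 and 99.4% for Cox8c. The stricter filter, which cuts on mitochondrial UMIs, gave mitochondrial shares of 2.43% in Sertoli-like and 3.32% in Leydig-like cells. With members among the variable genes no early class was formed. The early nuclear shares of 2.81 to 2.85% lay above the late-class share under the main settings, so the nuclear peak depends on the settings. The mitochondrial share was higher in the early (where formed) and joint classes than in the late, round and elongating classes under each of these settings.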
